A study of Mus musculus with 42 samples.

Results

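The Spata genes (spermatogenesis associated) and Tex genes (testis expressed) of the mouse were examined in testes with and without a working copy of Pcif1. Every protein-coding gene of the deposited testis table whose symbol begins with Spata or Tex followed by a number was taken, which gave 67 genes (29 Spata and 38 Tex) of 27409 in the table, 17101 of them protein-coding. The assay was m6Am-Exo-Seq of testes from adult mice, in 3 immunoprecipitated (IP) libraries from knockout (KO) mice, 3 IP libraries from heterozygous (HET) mice, 3 input libraries from KO mice and 3 input libraries from HET mice. KO mice carried on both copies of Pcif1 a Cas9-made deletion of 89 bp in the region of exon 15 and intron 16. HET mice carried the same allele beside an intact copy, and no wild-type testes entered this assay, so both genotypes hold the deletion. All mice came from a single edited line, started in hybrid B6D2F1/J embryos and then bred to C57BL/6J.

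PCIF1 is the enzyme that methylates the adenosine next to the cap of an mRNA when transcription starts with A, which gives the cap-adjacent mark m6Am. In m6Am-Exo-Seq, capped RNA ends are kept by an exonuclease step and then pulled down with an antibody that recognises m6A and m6Am, and the ratio of IP to input is read as the measure of binding. Whether the input is total RNA or RNA after the exonuclease step is not given in the sources used here, so an input signal may reflect capped ends as well as RNA level. Sperm form in the testis from spermatogonia through meiotic spermatocytes to round spermatids, which build the acrosome, and elongating spermatids, which build the tail and compact the nucleus. Spata and Tex symbols record testis expression rather than common descent, and they cover meiotic proteins, acrosome and tail proteins, and proteins such as SPATA2 and TEX2 that many tissues make.

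Because the mark requires A as the first transcribed base, the annotated starts of the genes on which the results turn are shown here. Each window holds 30 bases of the RefSeq annotation (GRCm38.p6), 15 before the annotated start and 15 from it on, and the capital letter marks the first transcribed base. For the first 7 genes the IP stood lower relative to input in KO than in HET testes, for the next 2 it stood higher, and the last 3 genes were among the most enriched genes of the set in both genotypes.
Tex36 (chr7:133602101-133602130, minus strand): acagctgagaagatcAgatacagtgggtgg
Spata45, start 1 (chr1:191035894-191035923, plus strand): tgggtgagttaatgcGtgtttgctgactca
Spata45, start 2 (chr1:191036804-191036833, plus strand): ccagggcaacagtccAgtgggctgatcctc
Spata31 (chr13:64917391-64917420, plus strand): tcctggctttgtgatGgagagtctccagct
Tex21 (chr12:76246732-76246761, minus strand): ctgtgacatggaaacAttctactggcaaat
Spata19, start 1 (chr9:27396792-27396821, plus strand): accttgctatttcacAgaagttctcagaca
Spata19, start 2 (chr9:27397197-27397226, plus strand): actcatcacccaaagTtctagactgcaggg
Tex29 (chr8:11840506-11840535, plus strand): ccctgacctccagctActtgtgagccgtag
Tex30 (chr1:44102427-44102456, minus strand): cctgcgtgcgccagcGcagtagcgggccgc
Tex2 (chr11:106612916-106612945, minus strand): gagccggagctggagCtggagcaggagccg
Spata1, start 1 (chr3:146499779-146499808, minus strand): cctccccctccccccGggacggccgcgggc
Spata1, start 2 (chr3:146499739-146499768, minus strand): cgcgcgagagagagaGaaggggcggagcgg
Spata3 (chr1:86021930-86021959, plus strand): ggaccttgctgtggtCaaagatcagagaca
Tex13c1 (chrX:43590974-43591003, plus strand): cagcttggcttttgcCagaaggaaggagaa
Tex47 (chr5:7304149-7304178, plus strand): agcatggcagaggtcAagccaagaggacct
Tex36, Tex21, Tex29 and Tex47 had A at their only listed start, Spata19 and Spata45 had A at 1 of 2 starts, and Spata31, Tex30, Tex2, Spata1, Spata3 and Tex13c1 had no A there. These are annotated starts, and the start each transcript used in these testes was not measured.

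Values are signals: read numbers scaled by 1 factor per library, with no division by gene length. KO IP libraries held 1816831 to 4364847 reads, HET IP libraries 2689591 to 6574479, KO inputs between 4151226 and 4971554 and HET inputs between 4224175 and 4907380, and 1 read was worth a signal of 0.653 to 2.20. Spata and Tex genes took 0.974 to 1.02% of reads in KO IP libraries and 1.30 to 1.51% in HET IP libraries. In inputs they took 0.935 to 1.01% of reads in KO testes and 1.07 to 1.12% in HET testes. Pcif1 itself, which the small deletion does not remove from the count, had signals of 7.98, 6.75 and 1.64 in KO inputs, against 5.53, 7.39 and 10.4 in HET inputs, and checks no label. The summed signal of 20 marker genes of elongating spermatids ranged between 40690 and 41379 across KO inputs, and between 46084 and 49688 across HET inputs. Odf2 alone averaged 22560.2 in KO and 25966 in HET inputs, while Prm1 averaged 1.86 in KO and 0.53 in HET inputs and Odf1 averaged 0 in KO and 0.27 in HET inputs. The 3 erythroid genes in the table summed to at most 7.39. The long non-coding model Gm42418, which overlaps ribosomal RNA, took 0.407 to 0.419% of reads in KO IP libraries and 0.0471 to 0.149% in HET IP libraries, and 0.400 to 0.762% in KO inputs against 0.242 to 0.282% in HET inputs. Its part in the results below was not tested. HET IP replicate 2 stood apart from the other HET IP libraries, with a chi-square per gene of 27.5 and 20.3 in its pairs and at most 9.65 in every other pair of replicates. This measure grows with read depth, and HET IP replicate 2 was the deepest library, with 6574479 reads. It also had the highest share of Spata and Tex reads, 1.51%.

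A gene entered a test where 3 or more of the libraries compared had a signal of 10 or more, and it was called where limma, on log2(signal + 1), gave an adjusted p below 0.05. Of the 67 genes, 51 were tested over all 12 libraries, and 46 over the 6 inputs. The 16 genes below the filter were Spata22, Spata31d1c, Spata31d1d, Spata46, Tex11, Tex12, Tex13b, Tex13c2, Tex13c3, Tex15, Tex16, Tex19.2, Tex28, Tex44, Tex46 and Tex50. Spata32, Spata4, Spata48, Tex24 and Tex37 were below it in the inputs alone. Of the 51, 38 had a mean of at least 10 in all 4 groups, whereas Spata32, Spata4 and Tex24 reached it in 1 group.

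Input signal of 10 of the 46 tested genes was lower in KO than in HET testes and that of 0 was higher, against 6.01% lower and 3.32% higher of all 11278 genes tested. The 10 were Spata1, Spata6, Spata9, Spata20, Spata33, Tex26, Tex29, Tex43, Tex45 and Tex48, and their log2 differences ranged from -0.76 to -0.29. The median over the 46 was -0.28, against -0.0049 over all genes tested, and 34 of the 46 lay below 0 (73.9%, against 50.5% of all genes). KO signals lay wholly below HET signals in 20 genes, wholly above in 4, and overlapped in 22. The same count was not made over all genes, so these numbers have no baseline here. At an unadjusted p below 0.05, limma placed 20 genes lower and 3 higher. Of all 11278 genes tested, 2946 passed that threshold in either direction. With Benjamini-Hochberg adjustment, edgeR called 10 lower and 0 higher, and DESeq2 called 9 lower and 1, Tex30, higher.

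Spata6, which builds the connecting piece between sperm head and tail, took the most reads of the set. Its input signals were 14077, 13619 and 13900.3 in KO inputs, against 16715, 17281 and 16922 in HET inputs, without overlap (log2 difference -0.29 ± 0.065; limma adjusted p = 0.0152). Values after ± are standard errors of a log2 difference here and in what follows, with 3 libraries a group. Spata33, which anchors calcineurin at sperm mitochondria, had signals of 3987, 3223 and 3389 in KO inputs, against 4072, 4989 and 4870.1 in HET inputs (-0.39 ± 0.10; adjusted p = 0.0224). Both genes were lower in each of the 3 KO inputs than in any HET input.

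Spata20, a thioredoxin-like protein of spermatids, had signals of 3171, 3121 and 3163 in KO inputs, against 3791, 4135 and 4146 in HET inputs (-0.35 ± 0.07; limma adjusted p = 0.00864). Tex43, a protein of the inner wall of sperm tail microtubules, had signals of 1355, 1285 and 1347 in KO inputs, against 1621, 1546 and 1820.1 in HET inputs (-0.32 ± 0.081; adjusted p = 0.0262). Spata1, a protein of the acrosome, had signals of 1342, 1254 and 1334 in KO inputs, against 1603, 1707 and 1667 in HET inputs (-0.34 ± 0.074; adjusted p = 0.0133). None of these 3 genes overlapped between genotypes. Tex43 overlaps Phax and Spata1 overlaps Ctbs in the RefSeq annotation, and the use of strand in counting is not given in the sources used here.

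Tex26 had signals of 449, 404 and 342 in KO inputs, against 646, 612 and 602 in HET inputs (-0.64 ± 0.10; limma adjusted p = 0.00326). Tex48 had signals of 42.5, 42.7 and 44.2 in KO inputs, against 56.9, 75.7 and 93.2 in HET inputs (-0.76 ± 0.19; adjusted p = 0.0269), with KO libraries close together and HET libraries further apart. Tex29 had signals of 1089, 1074 and 952 in KO inputs, against 1232, 1379 and 1411 in HET inputs (-0.37 ± 0.086; adjusted p = 0.0188). These 3 genes were lower in every KO input. Tex45, which overlaps Pex11g, had signals of 240.1, 181 and 196 in KO inputs, against 277, 291 and 263 in HET inputs (-0.44 ± 0.12; adjusted p = 0.0359). Spata9 had signals of 68.2, 66.0 and 48.3 in KO inputs, against 101, 87.8 and 86.8 in HET inputs (-0.60 ± 0.17; adjusted p = 0.0415). In both, the highest KO input was below the lowest HET input.

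**Figure D1:**
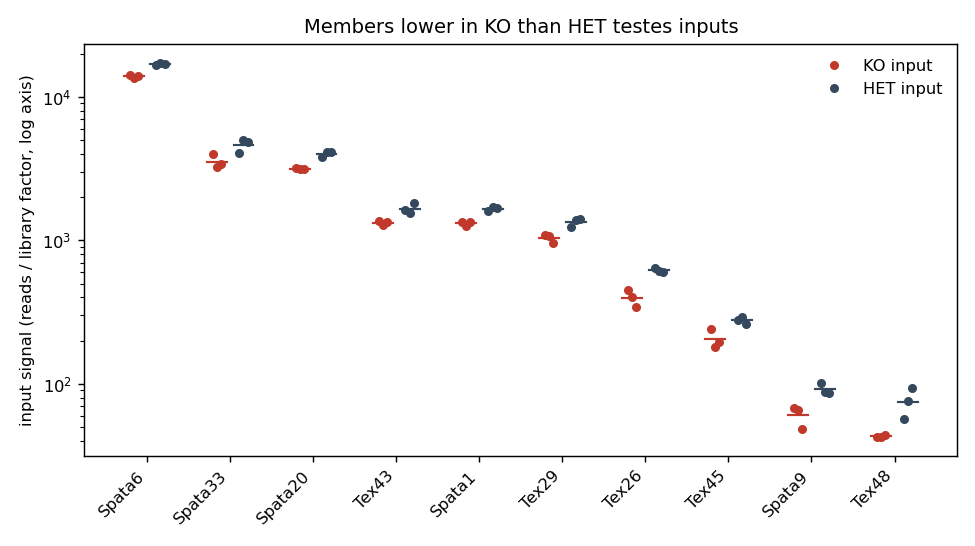
Input signal (log axis) of the 10 genes called lower in KO than in HET testes, with 3 KO inputs left of 3 HET inputs for each gene and a bar at the mean. In all 10 genes the highest KO point lies below the lowest HET point.

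The widest positive input difference was that of Tex19.1, which restrains retrotransposons in germ cells. Its relative Tex19.2 was listed at or near 0 in every library. Tex19.1 had signals of 15.1, 18.7 and 24.5 in KO inputs, against 3.95, 12.9 and 7.97 in HET inputs, without overlap, yet it was not called (1.24 ± 0.39; limma adjusted p = 0.0645). Tex30 had 3029.6, 2787 and 2846 in KO inputs, against 2269, 2585 and 2563 in HET inputs, also without overlap (0.23 ± 0.077; adjusted p = 0.081). Spata13 had 20.4, 18.0 and 20.5 in KO inputs, against 8.70, 5.54 and 16.7 in HET inputs (0.98 ± 0.36; adjusted p = 0.105). All 3 were higher in each KO input than in any HET input, without passing the test.

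Spermatid markers moved in the same direction as these genes. Of 15 tested round spermatid markers, 5 were lower and 0 higher in KO inputs (median log2 difference -0.41). The 20 markers of the list summed to a signal of 6709 to 7356 in KO inputs, against 8581 to 9063 in HET inputs. Most of that sum was Zpbp2, Acr and Crem, which averaged 2507.8, 1688 and 1172 in KO inputs and 3009.7, 1899.7 and 1527 in HET inputs. Among 16 tested markers of elongating spermatids, 4 were lower and 0 higher (median -0.28). Of 21 spermatocyte markers, 2 were higher and 1 lower (median 0.062), and none of 7 spermatogonial markers was called (median 0.34). Of 7 tested Sertoli cell genes, 2 were higher (median 0.16). The 13 genes of the list summed to 2546 to 2702 in KO inputs, against 2129 to 2221 in HET inputs. Most of that sum was Amhr2, which averaged 1855.7 in KO and 1515.3 in HET inputs. Clu averaged 331.8 in KO and 338.9 in HET inputs, and Sox9, Amh and Cldn11 averaged at most 2.89 in either. None of 4 tested Leydig cell genes was called, 1 of 3 macrophage genes was lower, and 1 of 4 peritubular and vascular genes was higher. The gene called in the macrophage list, Aif1, averaged 1383.9 in KO and 1684.4 in HET inputs. Adgre1 and Csf1r of the same list averaged at most 1.48 in either, so the call of Aif1 is no measure of macrophages. In bulk testis, fewer cells of a type and less RNA per cell cannot be told apart, and the part of cell composition in the lower Spata and Tex inputs was not tested.

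The input calls depended on single libraries and on the estimate of spread. Without HET input replicate 1, 2 or 3, the genes called lower numbered 8, 3 and 1, and without KO input replicate 1, 2 or 3 they numbered 11, 3 and 3. Tex26 alone was called in each of these 6 fits, and without HET input replicate 2 Tex19.1 was called higher. With the spread estimated over all 12 libraries, 0 of the 46 were called, and 24 of all genes. Scaling by library size left 7 genes lower and 1 higher, and over all genes it gave 582 higher and 461 lower, against 374 higher and 678 lower with the deposited factors.

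The IP was enriched over input for 12 of 51 tested genes in KO testes and depleted for 11, against 21.2% enriched and 24.3% depleted of 12387 genes tested. In HET testes it was enriched for 19 and depleted for 7, against 14.7% and 15.4% of all genes. The median log2 ratio of IP to input was -0.049 in KO testes, against -0.074 over all genes, and 0.23 in HET testes, against 0.021 over all genes. Called directions coincided as enriched in both genotypes for 8 genes and as depleted in both for 5. Tex2 was called enriched in KO and depleted in HET. A further 3 genes were called enriched in KO alone and 11 in HET alone. These joint counts were not made over all genes, so they have no baseline here. Spata4, Tex24 and Tex37 had no input library at a signal of 10 and passed the filter only through IP libraries, which favours enrichment. All 3 entered the medians above. Tex24 alone of the 3 was called, and its calls support nothing. Leaving Tex24 aside, 11 genes were enriched in KO, 18 in HET and 7 in both. Without HET IP replicate 2, 14 genes were enriched and 7 depleted in HET testes, and Spata9, Spata19, Spata31d1b, Spata45 and Tex24 lost the call. A call in one genotype alone is no test of a difference, which follows further on.

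Tex13c1, of the X-linked Tex13 family, had the highest ratio in both genotypes. Its signals were 382, 412 and 214 in KO IP libraries, against 32.8, 42.7 and 45.0 in KO inputs (2.99 ± 0.33; limma adjusted p = 3.97e-06). In HET testes they were 310.3, 102 and 203 in HET IP libraries, against 34.0, 43.4 and 46.2 in HET inputs (2.16 ± 0.33; adjusted p = 1.73e-04). IP lay above input in every library of both genotypes. The ratios were not called different, with a 95% interval of -0.16 to 1.83 for the log2 difference. Copies of the family could share reads, and how alike they are was not computed, so values for single Tex13c genes are uncertain.

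Tex13a, a second member of that family, had 412, 126 and 409 in KO IP libraries, against 101, 90.0 and 94.9 in KO inputs (1.53 ± 0.33; limma adjusted p = 0.0016). HET testes gave 292, 289 and 235 in HET IP libraries, against 104, 117 and 162 in HET inputs (1.10 ± 0.33; adjusted p = 0.0203). It overlaps Il1rapl2 in the annotation, and its HET call was lost without HET IP replicate 1, HET input replicate 1 or HET input replicate 2 (adjusted p 0.0527 to 0.0828). Both tested members of the Tex13 family were enriched in both genotypes, while Tex13b, Tex13c2 and Tex13c3 were below the filter.

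Spata3 was among the 6 genes with the most input reads and had the lowest adjusted p for enrichment in each genotype. Its signals were 8225, 7177 and 5809 in KO IP libraries, against 2438, 2356 and 2243 in KO inputs (1.58 ± 0.13; limma adjusted p = 2.95e-07). In HET testes they were 8886, 8022 and 7102 in HET IP libraries, against 2442, 2750.0 and 2774 in HET inputs (1.59 ± 0.13; adjusted p = 7.11e-07). The log2 difference of the ratios was -0.01, with a 95% interval of -0.41 to 0.39. Each KO input lay below each HET input without passing the test (-0.18 ± 0.077; adjusted p = 0.159). The annotated start of Spata3, shown above, has C and not A.

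Tex47, which overlaps Zfp804b, had 207, 282 and 229.8 in KO IP libraries, against 114, 90.7 and 97.4 in KO inputs (1.23 ± 0.19; limma adjusted p = 9.46e-05). In HET testes it had 269, 436 and 291 in HET IP libraries, against 113, 113 and 118 in HET inputs (1.49 ± 0.19; adjusted p = 3.66e-05). IP again lay above input throughout. Tex24, selected by the filter through its IP libraries, had 17, 11 and 8 reads in KO IP libraries and 2, 2 and 3 in KO inputs. In signal these were 25.4, 24.2 and 7.21 in KO IP libraries, against 1.77, 1.50 and 2.45 in KO inputs (2.61 ± 0.65; adjusted p = 0.00419). HET testes gave 11.9, 7.84 and 8.04 in HET IP libraries, against 2.37, 0 and 3.98 in HET inputs (1.98 ± 0.65; adjusted p = 0.0308), and this HET call was lost in 5 of 15 alternative settings (adjusted p up to 0.151). The ratio of Tex24 rests on few reads.

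Depletion in both genotypes was found for Tex261, Tex101, Tex10, Spata5 and Spata33. Tex261, which acts in export from the endoplasmic reticulum, had 77.8, 72.7 and 103 in KO IP libraries, against 292, 322 and 337 in KO inputs (-1.91 ± 0.20; limma adjusted p = 1.80e-06). In HET testes it had 131, 128 and 108 in HET IP libraries, against 301, 475 and 473 in HET inputs (-1.73 ± 0.20; adjusted p = 1.14e-05). Its inputs overlapped between genotypes (-0.36 ± 0.15; adjusted p = 0.14).

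Spata5, an AAA ATPase of ribosome assembly, had 86.8, 117 and 77.5 in KO IP libraries, against 144, 163 and 187 in KO inputs (-0.82 ± 0.20; limma adjusted p = 0.00396). In HET testes it had 70.1, 49.0 and 52.7 in HET IP libraries, against 151, 137 and 139 in HET inputs (-1.31 ± 0.20; adjusted p = 1.83e-04). Tex10, also of ribosome assembly, had 138, 209 and 128 in KO IP libraries, against 246, 309.7 and 342 in KO inputs (-0.94 ± 0.21; adjusted p = 0.00206). HET testes gave 163, 107 and 147 in HET IP libraries, against 283, 237 and 288 in HET inputs (-0.97 ± 0.21; adjusted p = 0.00281). For both genes IP lay below input in every library, and neither ratio was called different between genotypes. Spata5 overlaps Nudt6 and Tex10 overlaps Invs.

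Spata33, whose input was lower in KO, had IP signals of 2309.5, 2788 and 2335 in KO IP libraries, against 3433, 3494 and 3254 in HET IP libraries. Its log2 ratio of IP to input was -0.51 ± 0.13 in KO and -0.45 ± 0.13 in HET, and the difference had a 95% interval of -0.44 to 0.31. The HET call was lost without HET input replicate 2 (limma adjusted p = 0.0668) or 3 (adjusted p = 0.0601). Spata21 was not called in KO testes, with 677, 518 and 454 in KO IP libraries, against 577, 448 and 474 in KO inputs (0.13 ± 0.19; limma adjusted p = 0.617). It was called depleted in HET testes, with 389, 532 and 307 in HET IP libraries, against 608, 548 and 578 in HET inputs (-0.53 ± 0.19; adjusted p = 0.0463). The HET call of Spata21 was lost in 10 of 19 alternative settings (adjusted p up to 0.215).

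**Figure D2:**
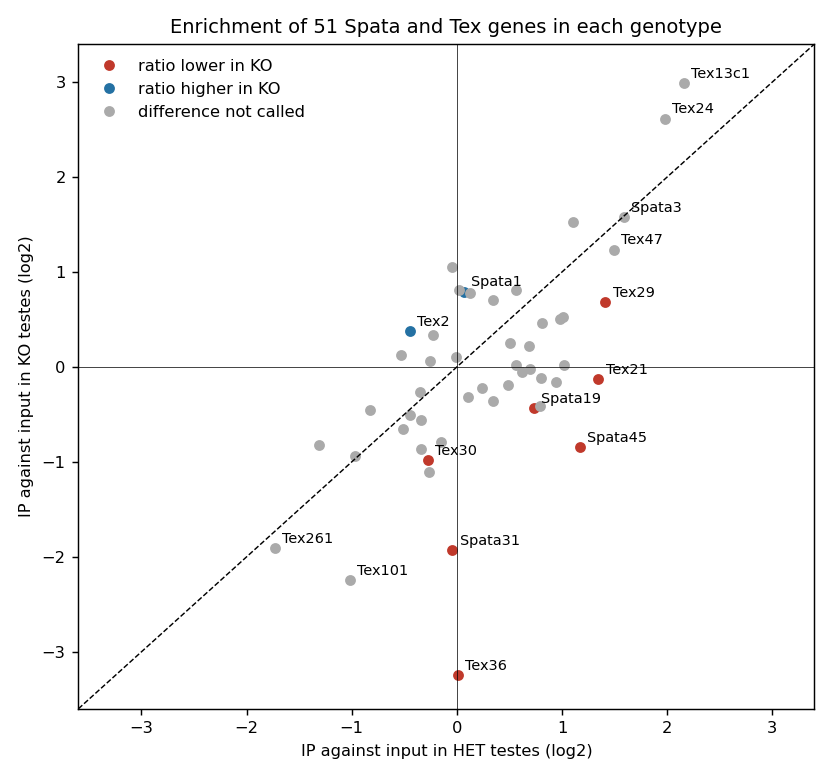
Log2 ratio of IP to input for the 51 tested genes in KO testes (y axis) and HET testes (x axis), with a dashed line where both are equal. Genes whose ratio was lower in KO are red, those with a higher ratio are blue and the others are grey. Tex36 lies at -3.25 in KO and 0.012 in HET, while Tex13c1, Spata3, Tex47 and Tex24, the last of which passed the filter only through IP libraries, lie above 1 in both genotypes.

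The ratio of IP to input was lower in KO than in HET testes for 7 of 51 tested genes and higher for 2, against 6.25% lower and 3.72% higher of 12387 genes tested in the same model. The genes with a lower ratio were Tex36, Spata45, Spata31, Tex21, Spata19, Tex29 and Tex30, and those with a higher ratio were Tex2 and Spata1. The median log2 difference over the 51 was -0.34, against -0.013 over all genes tested. At an unadjusted p below 0.05 limma placed 15 genes lower and 4 higher. Of all 12387 genes tested, 3289 passed that threshold in either direction. Of the 7, Spata45, Tex21, Spata19 and Tex29 were enriched in HET testes, whereas Tex36, Spata31 and Tex30 were not.

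Tex36 showed the widest difference of the set. Its IP signals were 1.50, 2.20 and 5.41 in KO IP libraries, against 34.3, 68.6 and 45.6 in HET IP libraries. Its input signals were 36.3, 30.7 and 36.0 in KO inputs, against 54.5, 41.6 and 46.2 in HET inputs. The IP signal was far below the input level in KO and overlapped it in HET, while the inputs differed less (log2 difference of the ratios -3.26 ± 0.52, 95% interval -4.35 to -2.17; limma adjusted p = 0.00168). In reads, the KO IP libraries held 1, 1 and 6 and the HET IP libraries 23, 105 and 51, so the size of the difference rests on 8 reads in KO.

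Spata31, from a family of germ cell genes in several copies, also had low IP signals in KO without being enriched in HET. Its IP signals were 5.99, 4.40 and 6.31 in KO IP libraries, against 25.4, 24.8 and 35.7 in HET IP libraries, and its input signals were 22.2, 24.7 and 24.5 in KO inputs, against 27.7, 29.6 and 30.3 in HET inputs. KO IP lay below KO input in every library, and HET IP overlapped HET input (-1.88 ± 0.42, 95% interval -2.78 to -0.98; limma adjusted p = 0.0127). Its copies Spata31d1a and Spata31d1b were enriched in HET testes. Spata31d1b had IP signals of 26.9, 19.8 and 27.9 in KO IP libraries, against 46.2, 70.5 and 45.6 in HET IP libraries and inputs of 38.1, 33.0 and 28.6 in KO inputs, against 36.4, 31.4 and 23.9 in HET inputs, and its lower ratio in KO did not pass the test (-1.20 ± 0.39; adjusted p = 0.0614). The HET enrichment of Spata31d1b was lost in 6 of 19 alternative settings (up to 0.158). Spata31d1a had IP signals of 97.3, 63.9 and 61.3 in KO IP libraries, against 98.5, 103 and 89.3 in HET IP libraries and inputs of 56.7, 51.0 and 45.0 in KO inputs, against 54.5, 47.1 and 44.6 in HET inputs (-0.47 ± 0.31; adjusted p = 0.356). The family's copies could share reads, so the split between them is uncertain.

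Spata45 had IP signals of 5.99, 6.61 and 9.01 in KO IP libraries, against 22.4, 35.9 and 44.7 in HET IP libraries. Its inputs were 19.5, 9.75 and 13.1 in KO inputs, against 13.4, 13.9 and 15.1 in HET inputs, which overlapped. The IP was below input in KO and above input in HET in every library (-2.02 ± 0.53, 95% interval -3.13 to -0.90; limma adjusted p = 0.0248). The 3 KO IP libraries held 17 reads, and the HET enrichment of Spata45 was lost in 6 of 18 alternative settings (adjusted p up to 0.115).

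Tex21 had IP signals of 61.4, 50.7 and 49.6 in KO IP libraries, against 179, 217 and 209 in HET IP libraries. Its inputs were 63.8, 46.5 and 68.7 in KO inputs, against 60.1, 85.9 and 94.0 in HET inputs. KO IP overlapped KO input and HET IP stood above HET input (-1.48 ± 0.31, 95% interval -2.14 to -0.82; limma adjusted p = 0.00906). Spata19, a protein of the sperm mitochondrial sheath, had IP signals of 109, 90.3 and 78.4 in KO IP libraries, against 216, 401 and 229.6 in HET IP libraries. Its inputs were 121, 135 and 118 in KO inputs, against 146, 172 and 171 in HET inputs. IP lay below input in KO and above it in HET (-1.17 ± 0.31, 95% interval -1.82 to -0.52; adjusted p = 0.0259).

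Tex29 had the most reads of the genes enriched in HET that had a lower ratio in KO. Its IP signals were 2118, 1546 and 1410.0 in KO IP libraries, against 3707, 3881 and 3147 in HET IP libraries, with inputs as given above. It stayed enriched in KO testes (0.68 ± 0.15; limma adjusted p = 0.00147), less so than in HET testes (1.41 ± 0.15; adjusted p = 5.71e-06). The difference of the ratios was -0.73 ± 0.21 (95% interval -1.17 to -0.29; adjusted p = 0.0375).

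Tex30 had IP signals of 1265, 1788 and 1378 in KO IP libraries, against 1990.0, 2089 and 2041 in HET IP libraries, and every IP library was below every input of its genotype. Its depletion was called in KO (-0.98 ± 0.13; limma adjusted p = 1.86e-05) and not in HET (-0.27 ± 0.13; adjusted p = 0.119). The difference of the ratios was -0.71 ± 0.18 (95% interval -1.09 to -0.32; adjusted p = 0.0238).

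Tex2, a lipid transfer protein of the endoplasmic reticulum, moved the other way. Its IP signals were 1958, 1881 and 2239.8 in KO IP libraries, against 1131, 1006 and 1096 in HET IP libraries. Its inputs were 1527, 1513 and 1640.4 in KO inputs, against 1515, 1467 and 1427 in HET inputs, which overlapped. The IP lay above input in every KO library and below input in every HET library (0.82 ± 0.16, 95% interval 0.49 to 1.16; limma adjusted p = 0.00584). Its KO enrichment was lost under library size scaling and without KO IP replicate 3 or KO input replicate 2 (adjusted p up to 0.0751). Spata1 had IP signals of 1848, 2603 and 2416 in KO IP libraries, against 1523, 1757 and 1950.3 in HET IP libraries, which overlapped between genotypes, while its inputs were lower in KO. Its ratio was higher in KO (0.73 ± 0.19, 95% interval 0.32 to 1.13; adjusted p = 0.0272).

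**Figure D3:**
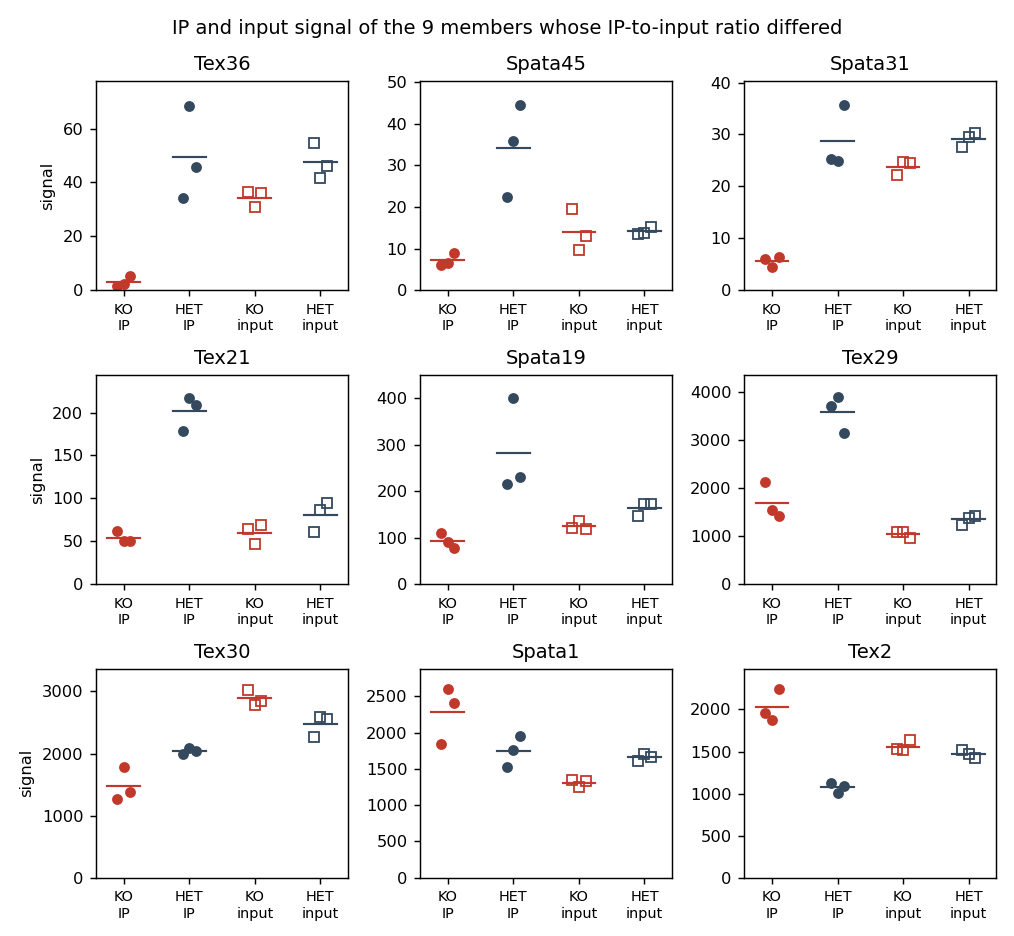
Signal of the 9 genes whose IP-to-input ratio differed between genotypes, in KO IP, HET IP, KO input and HET input libraries (3 points each, bars at the means, axes from 0). Tex36, Spata45 and Spata31 have KO IP signals below 10, while Spata1 and Tex2 have higher mean IP signals in KO than in HET.

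Tex36, Tex21, Spata31 and Tex2 were called in every alternative setting that tested them and without any single library. Spata1 lost its call in 9 of 20 alternative settings (limma adjusted p up to 0.141), Spata19 in 6 of 20 (up to 0.0752) and Spata45 in 7 of 19 (up to 0.0684). Tex29 lost it in 10 of 20 (up to 0.105) and Tex30 in 7 of 20 (up to 0.0749). The settings counted include KO IP against HET IP without inputs, a different contrast and no test of the ratio. In that contrast limma did not call Spata1 (adjusted p = 0.141) or Tex30 (adjusted p = 0.0625). Without 1 of the HET inputs (replicate 1, 2 or 3) the genes with a lower ratio numbered 3, 4 and 3, and without 1 of the KO inputs they also numbered 3, 4 and 3, with 1 gene higher in each of these 6 fits. Without HET IP replicate 2, 7 genes were lower and 4 higher, with Spata16 and Spata21 beside Tex2 and Spata1, and Tex29 lost its call.

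**Figure D4:**
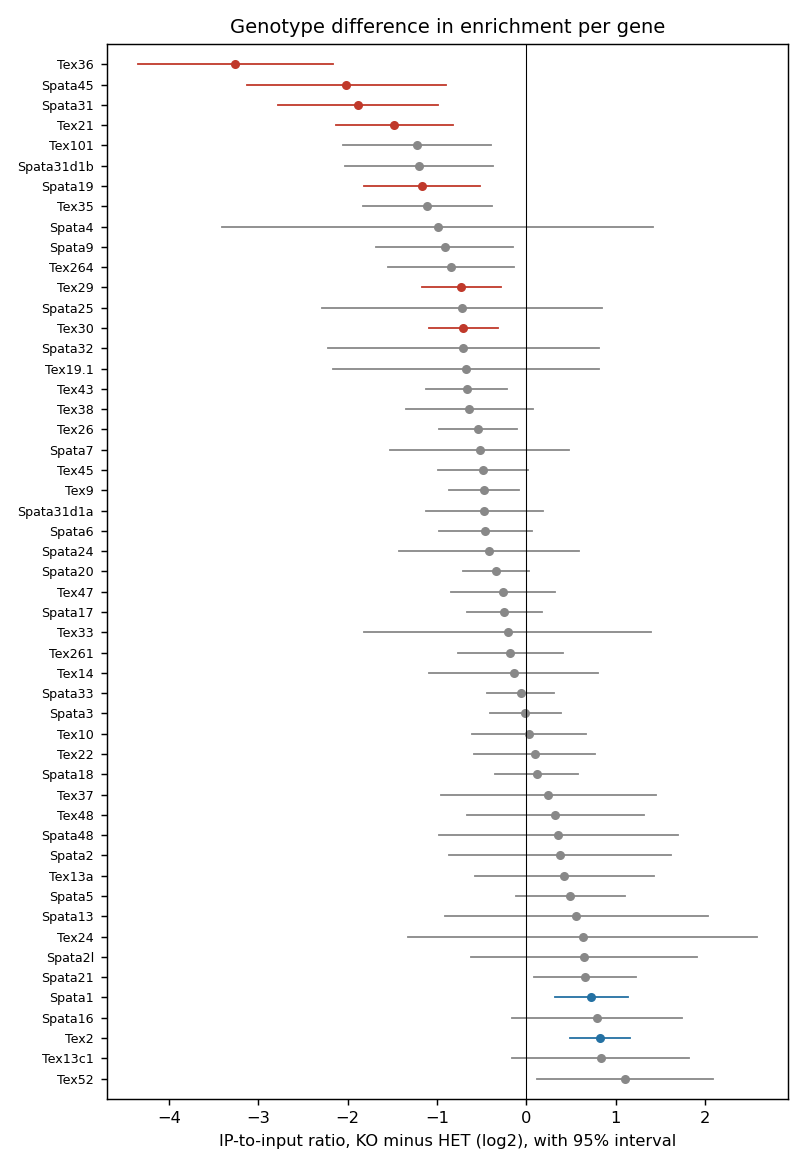
Log2 difference of the IP-to-input ratio, KO minus HET, for each of the 51 tested genes, with 95% intervals from limma; called genes are red where lower and blue where higher. The points run from -3.26 for Tex36 to 1.10 for Tex52, and most intervals cross 0.

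Set directly against each other, without the inputs, KO IP signals were lower than HET IP signals for 16 of 49 tested genes and higher for 1, Tex2, against 14.8% lower and 11.5% higher of 11345 genes. The median log2 difference was -0.46, against 0.0079 over all genes. Of the genes with lower input, 6 (Spata6, Spata9, Spata20, Tex26, Tex43 and Tex45) were among the 16 although their ratio of IP to input was not called different. Spata6 had IP signals of 10986, 10291 and 14701 in KO IP libraries, against 15449, 27394 and 18815 in HET IP libraries (-0.75 ± 0.22; limma adjusted p = 0.0238). Spata20 had 5007, 4479 and 3681 in KO IP libraries, against 7672, 6747 and 6708 in HET IP libraries (-0.69 ± 0.17; adjusted p = 0.0114). In both genes the IP groups did not overlap.

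Tex26 had IP signals of 403, 469 and 344 in KO IP libraries, against 859, 899 and 997 in HET IP libraries (-1.19 ± 0.19; limma adjusted p = 0.00118). Spata9 had 49.4, 79.3 and 43.2 in KO IP libraries, against 122, 217 and 155 in HET IP libraries (-1.51 ± 0.31; adjusted p = 0.00381). Tex43 had 1402, 1139 and 1327 in KO IP libraries, against 1994, 3146 and 2641 in HET IP libraries (-0.99 ± 0.20; adjusted p = 0.0035). All 3 were lower in every KO IP library, and all 3 were called enriched over input in HET testes and not in KO testes. Tex45 had 293, 370.0 and 235 in KO IP libraries, against 518, 578 and 587 in HET IP libraries (-0.93 ± 0.21; adjusted p = 0.00722) and was enriched in both genotypes. Its KO enrichment was lost without KO IP replicate 2 or KO input replicate 2 or 3 (adjusted p up to 0.0933), and the HET enrichment of Spata9 in 5 of 19 alternative settings (up to 0.111). Tex48 had 29.9, 79.3 and 38.7 in KO IP libraries, against 43.3, 88.2 and 60.8 in HET IP libraries, which overlapped.

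Medians of the spermatid markers were again negative, and so were those of several other cell types. Of 15 round spermatid markers, the ratio of IP to input in KO was lower for 6 and higher for 0 (median log2 difference -0.83), and of 16 markers of elongating spermatids, 2 had a lower one (median -0.43). The summed IP signal of the round spermatid markers was 5785 to 6025 in KO and 10726 to 14103 in HET. Most of that sum was Zpbp2, Acr and Crem, which averaged 1271, 1769 and 1318 in KO IP and 4013, 3319 and 2279 in HET IP libraries. Of 21 spermatocyte markers, 3 had a lower and 1 a higher ratio (median -0.33). The median was -0.51 over 6 Leydig cell genes, -0.24 over 4 peritubular and vascular genes and -0.10 over 7 Sertoli cell genes. It was 0.13 over 8 spermatogonial markers and 0.13 over 3 macrophage genes. Over all genes tested, 6.25% had a lower and 3.72% a higher ratio (median -0.013). What part spermatid transcripts as a class have in the lower ratios of Spata and Tex genes was not tested.

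By role, genes of meiosis and early germ cells were mostly at low signal. Tex11, Tex12, Tex15 and Spata22, which act in meiotic recombination and chromosome pairing, were below the filter, and so was Tex19.2. Tex14, needed for the bridges between germ cells, had IP signals of 16.5, 13.2 and 14.4 in KO IP libraries, against 13.4, 11.8 and 16.1 in HET IP libraries and inputs of 31.9, 19.5 and 21.3 in KO inputs, against 21.3, 21.2 and 17.5 in HET inputs. No test called it. Tex19.1 had IP signals of 8.98, 26.4 and 18.9 in KO IP libraries, against 5.97, 17.0 and 12.5 in HET IP libraries, which overlapped between genotypes.

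Tex101, a surface protein of germ cells held by a lipid anchor, was depleted from the IP in both genotypes. Its signals were 7.48, 8.81 and 10.8 in KO IP libraries, against 45.2, 45.0 and 48.3 in KO inputs (-2.24 ± 0.28; limma adjusted p = 1.01e-05). HET testes gave 17.9, 14.4 and 18.8 in HET IP libraries, against 37.9, 32.3 and 35.8 in HET inputs (-1.02 ± 0.28; adjusted p = 0.0109). The IP was lower in every KO library than in any HET library, but the ratios did not pass the test (-1.23 ± 0.39; adjusted p = 0.057). In total, 1 of 3 tested genes of this group was depleted in each genotype.

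For the acrosome and sperm head, Spata1 and Spata16 were tested and Spata46 was below the filter. Spata16, a Golgi protein needed for acrosome formation, had 201, 205 and 268 in KO IP libraries, against 105, 148 and 128 in KO inputs (0.81 ± 0.32; limma adjusted p = 0.0478). HET testes gave 82.0, 292 and 186 in HET IP libraries, against 181, 152 and 155 in HET inputs, which overlapped (0.019 ± 0.32; adjusted p = 0.972). The ratios did not pass the test of a difference (adjusted p = 0.277), and the KO call was lost in 13 of 19 alternative settings (adjusted p up to 0.152). Spata1 was likewise enriched in KO alone (0.79 ± 0.14 in KO and 0.064 ± 0.14 in HET).

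Of 6 tested genes of the sperm tail and its mitochondrial sheath, 0 were enriched in KO testes and 2 (Spata17 and Spata19) in HET testes, and Spata33 was depleted in both, against 21.2% enriched and 24.3% depleted of all genes in KO testes and 14.7% and 15.4% in HET testes. Spata17, of the axonemal central apparatus, had IP signals of 241, 227 and 237 in KO IP libraries, against 310.3, 290.0 and 345 in HET IP libraries and inputs of 221, 189 and 182 in KO inputs, against 222, 227 and 216 in HET inputs. It was not called in KO (0.25 ± 0.14; limma adjusted p = 0.153) and was called in HET (0.50 ± 0.14; adjusted p = 0.0134), with no difference called between them (adjusted p = 0.46). The HET call was lost without HET IP replicate 3 (adjusted p = 0.0556) or HET input replicate 3 (adjusted p = 0.0525), and that of Spata19 without HET IP replicate 2 (0.0736) or HET input replicate 1 (0.0751). Spata18, which acts in mitochondrial quality control, had IP signals of 605, 531 and 533 in KO IP libraries, against 779, 507 and 608 in HET IP libraries and inputs of 556, 504 and 489 in KO inputs, against 553, 634 and 696 in HET inputs, with all groups overlapping. Spata4 had IP signals of 7.48, 13.2 and 0 in KO IP libraries, against 7.46, 22.2 and 13.4 in HET IP libraries and inputs of 1.77, 4.50 and 6.55 in KO inputs, against 3.95, 5.54 and 9.56 in HET inputs, with 0 to 34 reads per library. It passed the filter only through IP libraries.

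A further list held 11 tested genes, grouped as proteins of general cell biology although Spata20 is best known from spermatids. Of these, 2 (Spata20 and Tex2) were enriched in KO testes and 6 (Spata5, Spata7, Tex10, Tex261, Tex264 and Tex30) were depleted, against 21.2% and 24.3% of all genes. In HET testes Spata20 was enriched, and Spata5, Tex10, Tex2 and Tex261 were depleted, against 14.7% and 15.4% of all genes. Tex264, a receptor for autophagy of the endoplasmic reticulum, had IP signals of 123, 79.3 and 160.4 in KO IP libraries, against 181, 274 and 172 in HET IP libraries and inputs of 284, 234 and 238 in KO inputs, against 223, 241 and 276 in HET inputs. Its KO depletion was called (-1.11 ± 0.23; limma adjusted p = 0.00124) and its ratio difference was not (-0.84 ± 0.33; adjusted p = 0.114). Spata7, a protein of the photoreceptor cilium, had IP signals of 15.0, 30.8 and 44.1 in KO IP libraries, against 43.3, 80.3 and 48.2 in HET IP libraries and inputs of 47.9, 45.0 and 60.5 in KO inputs, against 74.3, 73.9 and 62.9 in HET inputs. Its KO depletion (adjusted p = 0.0449) was lost under 12 of 19 alternative settings, edgeR and DESeq2 among them (up to 0.23).

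Spata2, the adaptor that joins CYLD to the linear ubiquitin ligase complex, had IP signals of 8.98, 8.81 and 9.91 in KO IP libraries, against 4.48, 9.80 and 4.47 in HET IP libraries and inputs of 12.4, 13.5 and 13.1 in KO inputs, against 7.91, 13.9 and 12.7 in HET inputs. Its relative Spata2l had IP signals of 25.4, 39.6 and 16.2 in KO IP libraries, against 35.8, 17.6 and 12.5 in HET IP libraries and inputs of 20.4, 11.2 and 13.1 in KO inputs, against 23.7, 13.9 and 18.3 in HET inputs. Spata13 had IP signals of 25.4, 24.2 and 25.2 in KO IP libraries, against 19.4, 6.53 and 3.57 in HET IP libraries, above HET in every KO library as its inputs were, and none of its tests passed. Signals of these 3 genes were low in every library.

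Tex52, which overlaps Foxm1, was enriched in KO testes, with 64.4, 39.6 and 31.5 in KO IP libraries, against 24.8, 18.7 and 18.0 in KO inputs (1.05 ± 0.33; limma adjusted p = 0.0166). HET testes gave 22.4, 20.2 and 21.4 in HET IP libraries, against 30.8, 23.1 and 15.1 in HET inputs, which overlapped (-0.05 ± 0.33; adjusted p = 0.926). The difference of the ratios was not called (1.10 ± 0.47; adjusted p = 0.143), and the KO call was lost without KO IP replicate 1 or KO input replicate 2 or 3 (adjusted p 0.0542 to 0.0824). Tex35 lay just outside the threshold with a lower ratio in KO (-1.11 ± 0.34; adjusted p marginally above 0.05), and edgeR and DESeq2 both called it.

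RefSeq start windows were found for 58 of the 67 genes. A was the first base at every listed start in 26, at some starts in 5 and at none in 27. A stood there in 34.4% of all 32851 RefSeq windows, a share per window that is no baseline for these counts per gene. Among tested genes with A at every start, 3 of 19 had a lower ratio in KO and 0 a higher one (median log2 difference -0.46), against 8.44% lower and 2.83% higher of all genes of that class (median -0.10). With A at no start, 2 of 21 were lower and 2 higher (median -0.34), against 5.81% lower and 4.28% higher of all such genes (median 0.0078). With A at some starts, 2 of 5 were lower and 0 higher (median -1.11), against 6.33% lower and 4.11% higher of all such genes (median 0.0053). Both genes with a higher ratio in KO, Tex2 and Spata1, had no A at an annotated start.

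HET enrichment was called in 6 of 19 genes with A at every start, 3 of 5 with A at some, and 7 of 21 with A at none. Over all genes the shares were 18.5%, 16.1% and 12.6%. Spata3 and Tex13c1, enriched in both genotypes, have C at their annotated start, and Tex47 has A. The antibody binds m6A as well as m6Am, and the position of the bound base was not measured.

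**Figure D5:**
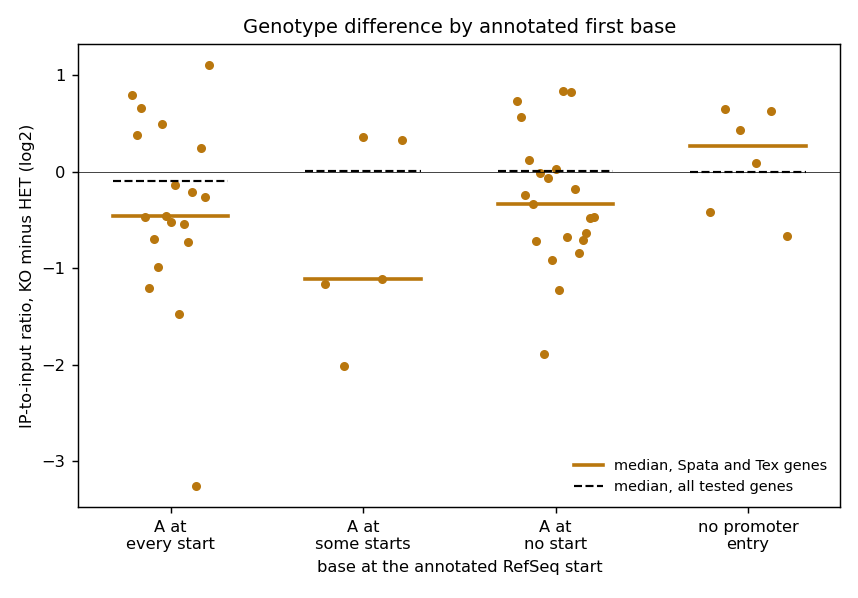
Log2 difference of the IP-to-input ratio (KO minus HET) of the 51 tested genes, grouped by the first base at their annotated RefSeq starts, with the median of these genes (solid) and of all tested genes in the class (dashed). The median of genes with A at every start is -0.46 and that of genes with A at no start is -0.34, and the points of the classes overlap.

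The authors' deposited table holds a log2 fold and an adjusted p, and the sign of the fold equalled that of the limma difference for 96.1% of genes. In the authors' deposited table, 46 of the 67 genes have an adjusted p, which is below 0.05 and negative for 10 and below 0.05 and positive for 2. Over all genes, 10929 have an adjusted p there, and it is below 0.05 for 1754 in either direction. All 9 genes called with limma are among the 12 Spata and Tex genes below 0.05, and the others are Tex26, Tex35 and Tex43, each with a lower ratio in KO. For Tex36 the authors' deposited table gives a log2 fold of -3.38 (adjusted p = 6.08e-06), and for Tex2 it gives 0.83 (adjusted p = 1.61e-06).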

How the data were processed

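The authors deposited 1 testis table with a signal per gene and library, that is, reads divided by a factor per library, as the values show: dividing by what 1 read is worth gave whole numbers for 100%, within a tolerance of 0.01. That deposited table also gives, per gene, a log2 fold and an adjusted p-value made by the authors. The submitters' processing notes name STAR, Salmon 0.12.0, DESeq, DESeq2 1.25.10 and R 3.6.2 without their roles. Which build, annotation and strand setting were used is not given in the sources used here. The other 30 of 42 samples in the labels were not analysed here.

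Genes that reached a signal of 10 in 3 or more of the libraries compared were tested on log2(signal + 1) with limma 3.58.1 (empirical Bayes with trend) in R 4.3.3, Benjamini-Hochberg adjusted over all genes tested. Folds on this scale understate the change of low genes. KO against HET inputs used 6 libraries. IP against input in each genotype, and the difference of the ratios, came from 1 model over 12 libraries. Scripts were tested on simulated data. On recovered whole reads, edgeR 4.0.16 (quasi-likelihood) called 439 genes higher and 650 lower in inputs and 637 higher and 807 lower for the difference. DESeq2 1.42.0, other pseudocounts (0.5 and 5), filters (none, and 30), library size scaling and leaving out each library were also tried. Labels carry no replicate numbers or batches, so replicates are numbered in accession order and p-values measure the spread between samples that may be technical. No library was a repeat of another: between replicates, chi-square per gene was 2.91 to 27.5, highest in the pairs of HET IP replicate 2. Intervals are limma's at 95%. Depth limits genes near 1 read, worth a signal of 0.653 to 2.20.

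The genes, lists and tests were chosen with earlier results of these data known. In full were given, per comparison, up to 6 called genes with the largest positive and up to 6 with the largest negative difference, the 6 with the highest mean in HET inputs, and tested genes of role lists. Genes named outside this rule were chosen after their values were seen. Start windows came from RefSeq (GRCm38.p6), matched by symbol.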

Additional observations from a re-analysis of the deposited data

Results flagged for a closer look

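The ratio of IP to input differed between KO and HET testes, by limma's test of the difference itself, for 9 genes. It was lower in KO for Tex36 (log2 difference -3.26), Spata45 (-2.02), Spata31 (-1.88), Tex21 (-1.48), Spata19 (-1.17), Tex29 (-0.73) and Tex30 (-0.71). It was higher in KO for Spata1 (0.73) and Tex2 (0.82). Tex36, Spata31 and Spata45 had 8, 13 and 17 reads in the 3 KO IP libraries together, against 179, 95 and 120 in the 3 HET IP libraries.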

How the results depend on the processing

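No called Spata or Tex gene turned its direction. Over all genes the balance of input calls turned with library size scaling (582 higher and 461 lower, against 374 and 678), and the median HET ratio moved to -0.076, against 0.021. Genes with lower input numbered 0 with the spread over 12 libraries, and 1 to 11 when 1 library was left out. Genes with higher input numbered 1 under DESeq2 and under library size scaling (Tex30 in both), and 0 to 1 when 1 library was left out. For the difference of the ratios, no filter gave 1 gene higher and 4 lower. With 1 library left out it gave 1 to 4 higher and 3 to 10 lower. KO IP against HET IP without inputs, a different contrast and no test of the ratio, gave 1 gene higher and 16 lower. The cause of these shifts was not tested. Of enrichment calls, 6 of 23 in KO testes and 9 of 26 in HET testes were lost by leaving out 1 library: with 1 library left out, 8 to 12 genes were enriched and 10 to 12 depleted in KO testes, and 14 to 19 and 5 to 7 in HET testes. Library size scaling moved the median KO ratio of all genes to -0.18, against -0.074, and gave 10 Spata and Tex genes enriched and 13 depleted in KO testes. Over all genes, calls for inputs fell to 24 with the spread over 12 libraries and ranged from 281 to 1433 with 1 library left out. Calls for the difference of the ratios ranged from 546 to 1729 with 1 library left out and numbered 793 with no filter. The contrast of IP libraries without inputs gave 2988. No paired analysis was possible because the labels carry no replicate numbers. KO IP replicate 2, with 1816831 reads, was the shallowest library and sets the floor for low genes.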

Other observations

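Spata25 and Spata2 lie on chromosome 2 with Pcif1 in the RefSeq annotation, with 3 protein-coding genes between Spata25 and Pcif1 and 31 between Spata2 and Pcif1. Spata25 had input signals of 16.0, 5.25 and 10.6 in KO inputs, against 28.5, 7.39 and 11.2 in HET inputs, and its IP signals were 7.48, 6.61 and 17.1 in KO IP libraries, against 16.4, 22.2 and 30.4 in HET IP libraries. Neither its input (-0.43 ± 0.48; limma adjusted p = 0.611) nor its IP-to-input ratio (-0.72 ± 0.74; adjusted p = 0.575) was called different between genotypes.

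The X chromosome carries 8 of the 67 genes, as many as chromosomes 1 and 11 each. Of the X-linked genes, 2 passed the filter, Tex13a and Tex13c1, which belong to 1 family. Both were enriched in the IP in KO and in HET testes, against 21.2% and 14.7% of all genes tested. Whether X-linked genes in general differ in either respect was not tested.

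Tex9, which overlaps Mns1, was not called in KO testes, with signals of 789, 813 and 671 in KO IP libraries, against 695, 629 and 625 in KO inputs (0.22 ± 0.13; limma adjusted p = 0.185). It was called enriched in HET testes, with 1262, 1009 and 1084 in HET IP libraries, against 655, 745 and 674 in HET inputs (0.69 ± 0.13; adjusted p = 9.12e-04). Tex38 was called depleted in KO testes, with 43.4, 28.6 and 25.2 in KO IP libraries, against 59.4, 51.0 and 55.6 in KO inputs (-0.79 ± 0.24; adjusted p = 0.0134). HET testes gave 83.5, 60.1 and 72.4 in HET IP libraries, against 72.7, 75.7 and 90.8 in HET inputs (-0.15 ± 0.24; adjusted p = 0.667), and the KO call was lost without KO IP replicate 3 (adjusted p = 0.0507). Tex35 had IP signals of 34.4, 46.2 and 30.6 in KO IP libraries, against 74.6, 97.3 and 73.3 in HET IP libraries and inputs of 46.1, 36.0 and 41.7 in KO inputs, against 34.8, 42.5 and 48.6 in HET inputs, so its IP groups did not overlap while its inputs did.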
